A study of Mus musculus with 6 samples.

Results

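Small RNA sequencing of mouse embryonic stem cells (ESCs) was examined for the miRNAs that are transcribed antisense to Rtl1. They are the 5p and 3p arms of 5 hairpins, miR-431, miR-433, miR-127, miR-434 and miR-136, which gives 10 mature miRNAs chosen by name among the 1907 in the count table. All 10 held counts, whereas 1233 of the 1907 had at least 1 count in the 6 libraries. A further 106 miRNAs were placed between Dlk1 and Dio3, the genes that bound this imprinted region of chromosome 12, and 96 of these had a count. Under the ground-state conditions 2i and R2i, the 10 miRNAs together made up about 2% of all miRNA counts, against 0.1096% and 0.219% in the serum libraries.

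The cells were 2 ESC lines, RB18 and RB20, derived in R2i from C57BL/6 blastocysts and grown without feeder cells on gelatin. Each line was sequenced in each of 3 media, so every medium had 2 libraries, and each library was a pool of 3 cultures. Serum medium held 15% fetal bovine serum with leukaemia inhibitory factor (LIF) at 1000 U/ml. The 2i medium was serum free and combined LIF with 1 µM PD0325901, an inhibitor of the kinase MEK, and 3 µM CHIR99021, an inhibitor of the kinase GSK3. R2i, also serum free, held LIF, the same 1 µM PD0325901 and 10 µM SB431542, an inhibitor of TGF-β receptors, in place of CHIR99021. Cells were kept in 2i or serum for at least 10 passages after transfer from R2i. A library thus stands for 1 line in 1 medium, and p-values measure the spread between the libraries of 2 lines.

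As background, a miRNA is cut from a hairpin precursor whose 5p and 3p arms can each be loaded into an Argonaute protein, and bases 2 to 8 of the loaded strand, the seed, pair with target mRNAs. Rtl1 is a retrotransposon-derived gene expressed from the paternal chromosome and needed in the placenta, while the miRNAs on its opposite strand are made from the maternal chromosome together with the non-coding RNA Meg3. Being complementary to Rtl1 along their whole length, these miRNAs can direct cleavage of its mRNA. Deletion of the miR-127 hairpin in mice raises Rtl1 in the placenta. In muscle, miR-431 is known to target Pax7, the transcription factor of satellite cells. The maternally expressed RNAs of the region are often silenced in mouse pluripotent cell lines.

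The mature sequences are shown because they hold the seed of each miRNA and the letters that match Rtl1. They are RefSeq sequences for GRCm38, 5′ to 3′, with the seed in capitals.
mmu-miR-431-5p: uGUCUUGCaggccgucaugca
mmu-miR-431-3p: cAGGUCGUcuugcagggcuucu
mmu-miR-433-5p: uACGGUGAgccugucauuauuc
mmu-miR-433-3p: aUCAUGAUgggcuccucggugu
mmu-miR-127-5p: cUGAAGCUcagagggcucugau
mmu-miR-127-3p: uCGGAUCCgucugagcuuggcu
mmu-miR-434-5p: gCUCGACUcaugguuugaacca
mmu-miR-434-3p: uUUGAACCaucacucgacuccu
mmu-miR-136-5p: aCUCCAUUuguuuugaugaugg
mmu-miR-136-3p: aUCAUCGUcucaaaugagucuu

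No seed was shared, either within the group or with any other of the 1679 mature names in the RefSeq table, so the 10 miRNAs form no seed family. Each one matched the Rtl1 mRNA without a mismatch at exactly 1 place, and all 10 matches fell inside the coding region. The site of the most abundant member is printed here as it reads in the Rtl1 mRNA, in capitals opposite the seed.
Rtl1 site of mmu-miR-127-3p: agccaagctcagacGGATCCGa
Besides the 10, only mmu-miR-432 among the RefSeq names had a full match to Rtl1, and it had 0 counts in every library.

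On GRCm38, Rtl1 lies on the minus strand at chr12:109589193-109600330 and has 2 exons. Its coding region of 5232 bases, chr12:109590172-109595403, is unbroken. The hairpins lie on the plus strand opposite it, Mir431 at chr12:109590447-109590537, Mir433 at chr12:109591715-109591838, Mir127 at chr12:109592846-109592915, Mir434 at chr12:109594506-109594599 and Mir136 at chr12:109595327-109595388. Read along the Rtl1 mRNA, the order is reversed, and the sites begin 16 bases (miR-136-3p) to 4924 bases (miR-431-5p) after the start codon. Level did not follow this order, since miR-127, in the middle, was the highest and the neighbouring miR-433 the lowest. The miR-3071 arms, annotated on the strand opposite Mir136, had 0 counts.

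**Figure D1:**
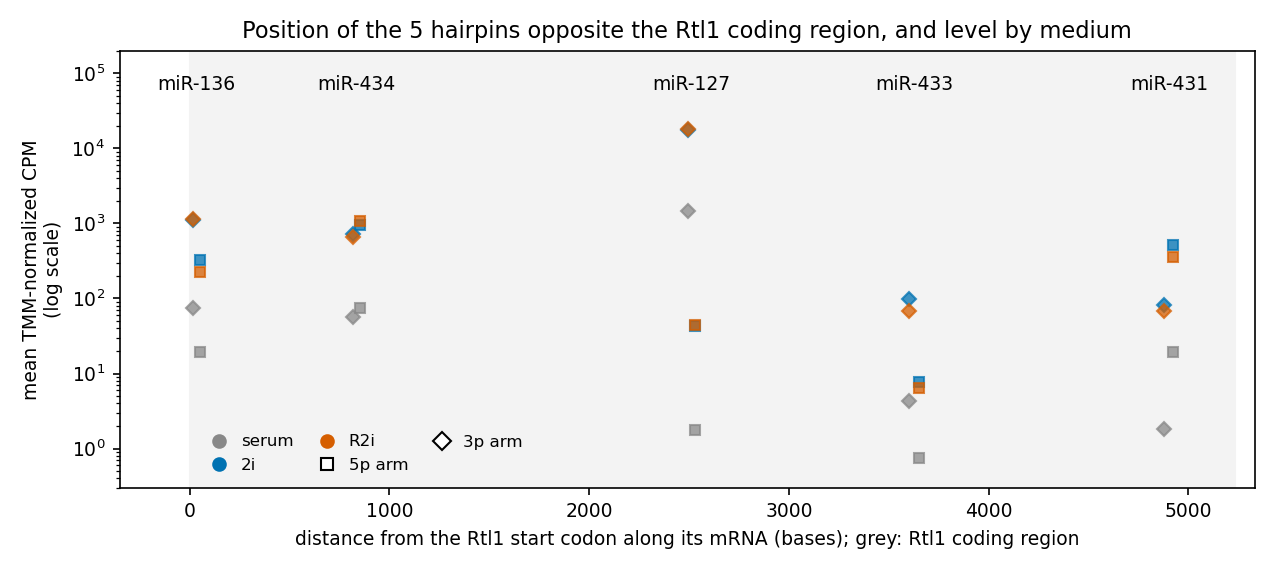
Mean TMM-normalized CPM of each miRNA (y axis, log scale, mean of 2 libraries per medium) at the distance of its site from the Rtl1 start codon (x axis, bases along the mRNA), with the coding region in grey, squares for 5p and diamonds for 3p arms. In all 10 positions the serum mean lies below the 2i and R2i means, and miR-127-3p, at 2494 bases, is the highest in every medium.

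Library totals ranged from 1041858 to 3593356 counts, and RB18 was the smaller library in every medium. At these totals 3 counts, the limit that a count of 0 allows, correspond to 0.835 to 2.88 CPM (a count divided by the total of its library and scaled by a fixed factor). The ESC cluster that runs from miR-290a to miR-295 took 33.5 to 43.5% of the counts of every library. Other cell-type lists gave the following summed CPM. The fibroblast or mesenchymal list, with counts for 6 of 6 miRNAs, summed to 1499 and 1844 in serum, 3332 and 3557 under 2i, and 2363 and 2708 under R2i. Most of that came from miR-143-3p, while miR-214-3p had at most 6 counts in any library and 0 in serum RB20 and both 2i libraries. The sum of this list moved in the same direction as the Rtl1-antisense miRNAs. By single miRNAs, miR-143-3p and miR-199a-3p were higher in every 2i and R2i library than in both serum libraries. For miR-145a-5p, miR-199a-5p and miR-199b-5p the libraries overlapped. The part of this list in the difference of the Rtl1-antisense miRNAs was not tested. The miR-302 cluster, also an ESC list (10 of 10), took 0.219 and 0.298% of serum counts, 0.392 and 0.658% under 2i, and 0.798 and 1.96% under R2i, and its part was not tested either. Neural miRNAs (3 of 3) lay between 423 and 801 CPM, endoderm miRNAs (3 of 3) between 1386 and 2302 CPM. Most of the endoderm sum came from miR-192-5p, while miR-122-5p had at most 7 counts and miR-375-3p at most 22 in any library. The muscle list (3 of 3) was at 41.9 and 83.1 CPM in serum and at 8.64 CPM or less elsewhere. Within it, miR-206-3p had 3 counts in serum RB20 and 0 in every other library. Blood miRNAs (4 of 5) were at 2645 and 2554 CPM in serum (RB18 first), 4792 and 1748 under 2i, and 834 and 317 under R2i. Most of the blood sum came from miR-142a-5p, and miR-223-3p was at 0 in every library. The other 2 blood miRNAs had few counts and were lower in serum. miR-451a had 0 and 3 counts in serum, 26 and 27 under 2i, and 22 and 66 under R2i. For miR-144-3p the counts were 1 and 0, 4 and 5, and 6 and 14.

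Of the library totals, the Rtl1-antisense miRNAs took 0.1096% in serum RB18 (95% Wilson interval 0.105 to 0.115%) and 0.219% in serum RB20 (0.213 to 0.225%). The share was 2.30% (2.28 to 2.32%) and 1.96% (1.95 to 1.98%) in the 2i libraries of RB18 and RB20. It was 2.54% (2.51 to 2.57%) and 2.02% (2.01 to 2.04%) in R2i. By medium this is 0.164 ± 0.077% in serum, 2.13 ± 0.24% under 2i and 2.28 ± 0.37% under R2i (SD, n = 2). The Wilson intervals cover counting error only, whereas the SD is the spread between the 2 libraries. The lowest ground-state library was thus far above the higher serum library. In bulk libraries, fewer cells that express a miRNA and less of it per cell cannot be told apart.

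miR-127-3p alone accounted for 81.0 to 86.5% of the group's counts in each library. Its TMM-normalized CPM, that is CPM after scaling by trimmed means, was 870.8 and 2101 in serum RB18 and RB20, 19058 and 16321 under 2i, and 18716 and 17471 under R2i. It ranked 83rd and 56th among all miRNAs of the serum libraries and 13th to 16th in the 4 ground-state libraries. Without it, the other 9 members took 0.0240 ± 0.0080% of serum counts, 0.382 ± 0.012% of 2i counts and 0.386 ± 0.088% of R2i counts (SD, n = 2). The shift was therefore present in the rest of the group as well as in its largest member.

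The other arm of the same hairpin, miR-127-5p, was rare, with 1 and 6 counts in serum RB18 and RB20. In TMM-normalized CPM, the scale of all CPM values of single members from here on, it measured 0.547 and 2.97 there. Under 2i it was at 45.7 and 41.2 CPM, and under R2i at 53.2 and 34.9 CPM. Its mean was 43.4 ± 3.15 CPM in 2i and 44.0 ± 12.9 CPM in R2i, so those media lay within the spread of their libraries.

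miR-136 and miR-434 came next in abundance. miR-136-3p measured 52.0 and 95.6 CPM in serum RB18 and RB20, 1108 and 1130 CPM under 2i, and 1306 and 970.7 CPM under R2i. miR-434-5p gave 52.5 and 96.1 CPM in serum, 981.7 and 923.5 CPM under 2i, and 1169 and 990.2 CPM under R2i. For miR-434-3p, which is known to target Eif5a in muscle, the values were 42.1 and 71.4 CPM in serum, 716 and 712 CPM under 2i, and 701 and 638 CPM under R2i. In serum and in R2i the libraries of miR-136-3p and miR-434-5p overlapped, so the order of these 2 could not be told there, while in 2i miR-136-3p was higher in both libraries. miR-136-5p was the lower arm of its hairpin, at 10.9 and 27.7 CPM in serum, 328 and 333 CPM under 2i, and 209 and 244 CPM under R2i.

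miR-431-5p measured 12.6 and 25.8 CPM in serum RB18 and RB20, 545 and 503 CPM under 2i, and 417 and 307 CPM under R2i. Its partner miR-431-3p had only 4 and 3 counts in serum, or 2.19 and 1.49 CPM, against 70.4 and 91.0 CPM under 2i and 81.5 and 53.8 CPM under R2i. miR-433-3p had 4 and 13 counts in serum, 209 and 308 under 2i, and 71 and 264 under R2i. The lowest member was miR-433-5p, with 0 and 3 counts in serum, 13 and 30 under 2i, and 6 and 27 under R2i. Serum RB18 gave at least 10 counts for 6 of the 10 members and serum RB20 for 7, whereas both 2i libraries did so for all 10 and the R2i libraries for 9 and 10. Differences for the rarest arms are accordingly known with less precision.

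**Figure D2:**
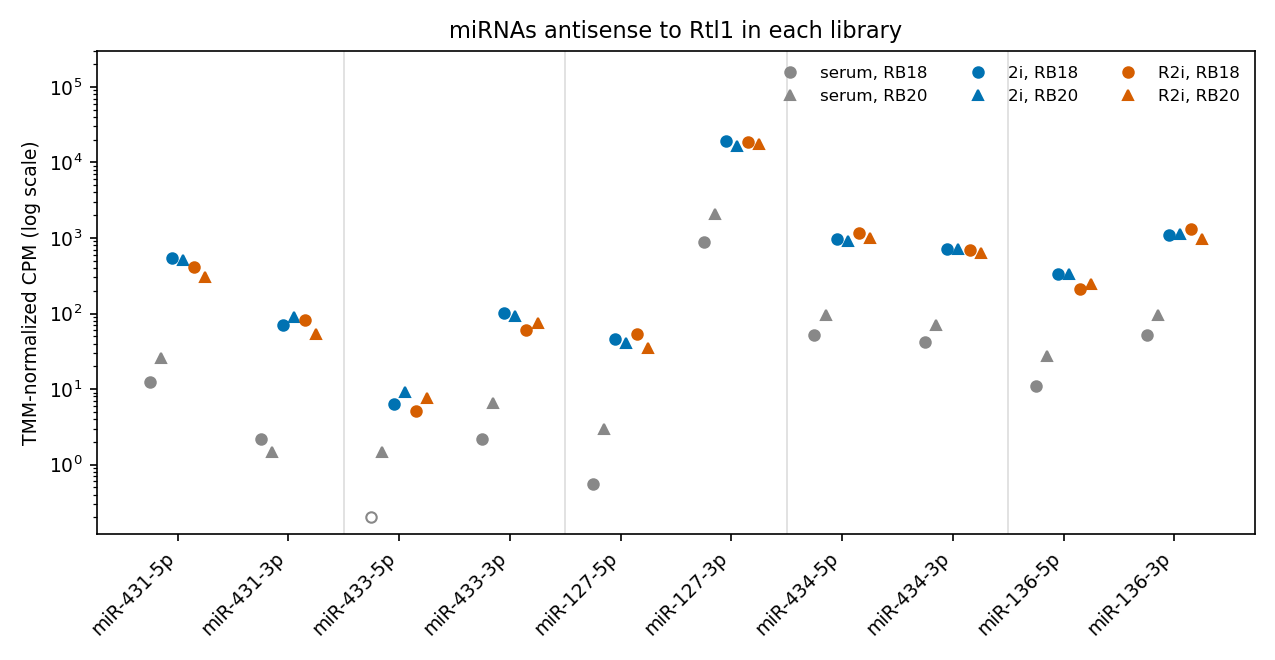
TMM-normalized CPM (y axis, log scale) of the 10 miRNAs (x axis) in each of the 6 libraries, coloured by medium, with circles for RB18 and triangles for RB20. The open circle is miR-433-5p in serum RB18, which had 0 counts and is drawn at the foot of the axis; every 2i and R2i symbol lies above both serum symbols of its miRNA.

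To ask whether the media differed, all 571 miRNAs that passed a filter on low counts, the 10 included, were fitted together with edgeR, and a miRNA was called at an adjusted p under 0.01 with a change of more than 2-fold. In 2i against serum, 9 of the 10 were called higher, 0 lower, and miR-433-5p was not called; of all tested miRNAs 16.8% were called higher. The median log2 fold change of the 10 was 4.0, against -0.03 over all 571. miR-431-3p rose by 5.43 (SE 0.42, adjusted p 6.86e-05) and miR-431-5p by 4.76 (SE 0.40, adjusted p 6.95e-05). The abundant miR-127-3p rose by 3.57 on the log2 scale (SE 0.42, adjusted p 0.000257), an 11.9-fold difference. miR-127-5p rose by 4.54 (SE 0.52) and miR-433-3p by 4.46 (SE 0.41). Both arms of miR-136 and of miR-434 rose by between 3.65 (miR-434-3p) and 4.08 (miR-136-5p). For miR-433-5p the log2 fold change was 3.25 (SE 0.85, adjusted p 0.0145). Leaving out serum RB20, where most members were higher than in serum RB18, moved the fold of 4 called members by more than 1.5 times, to log2 values of 4.29 for miR-127-3p, 6.13 for miR-127-5p, 4.85 for miR-136-5p and 5.39 for miR-433-3p. Without serum RB18, miR-127-5p was at 3.95. The value of miR-433-5p was 2.47 without serum RB18, and without serum RB20 it was 7.22, fitted against 0 serum counts and so dependent on the prior count. Which member had the highest fold thus depended on serum RB20. All 9 called members were called in each case.

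R2i against serum gave the same 9 calls, with 0 lower, where 15.1% of all tested miRNAs were called higher. The median log2 fold change was 3.90 for the 10 and -0.07 for all tested. miR-431-3p rose by 5.15 (SE 0.42, adjusted p 0.000164). miR-127-3p rose by 3.61 (SE 0.42, adjusted p 0.00035), or 12.2-fold, and miR-127-5p by 4.53 (SE 0.53). The other called members rose by between 3.54 (miR-136-5p) and 4.22 (miR-431-5p). miR-433-5p stood at 3.04 (SE 0.88, adjusted p 0.025) and was not called. This comparison and the previous one share the serum libraries, so they are not independent of each other. Without serum RB20 the values were 4.33 for miR-127-3p, 6.12 for miR-127-5p, 4.31 for miR-136-5p and 4.89 for miR-433-3p, and without serum RB18 miR-127-5p was at 3.94. For miR-433-5p, the value was 2.24 without serum RB18 and 7.0, again against 0 serum counts, without serum RB20.

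Because few serum counts stand behind 3 of the members, their ratios were also taken from pooled counts, over library sizes scaled as above and with exact 95% intervals that cover counting error only. miR-431-3p, with 7 serum counts in all, was 45.6 times as high in 2i (22.0 to 114) and 33.3 times as high in R2i (16.0 to 83.7). miR-127-5p, also with 7 serum counts, was 23.6 times as high in 2i (11.3 to 59.3) and 21.7 times in R2i (10.3 to 54.7). miR-433-5p, with 3 serum counts, gave 10.3 (3.31 to 52.1) and 9.07 (2.84 to 46.2). The counting intervals of these 3 arms overlapped one another, so their folds could not be ranked.

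The libraries did not overlap for any of the 10, since each 2i and R2i library was above both serum libraries, as it was for 29.1% of all tested miRNAs. The ratio of the lowest ground-state library to the highest serum library ran from 3.46 for miR-433-5p to 24.6 for miR-431-3p. It was 7.77 for miR-127-3p.

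**Figure D3:**
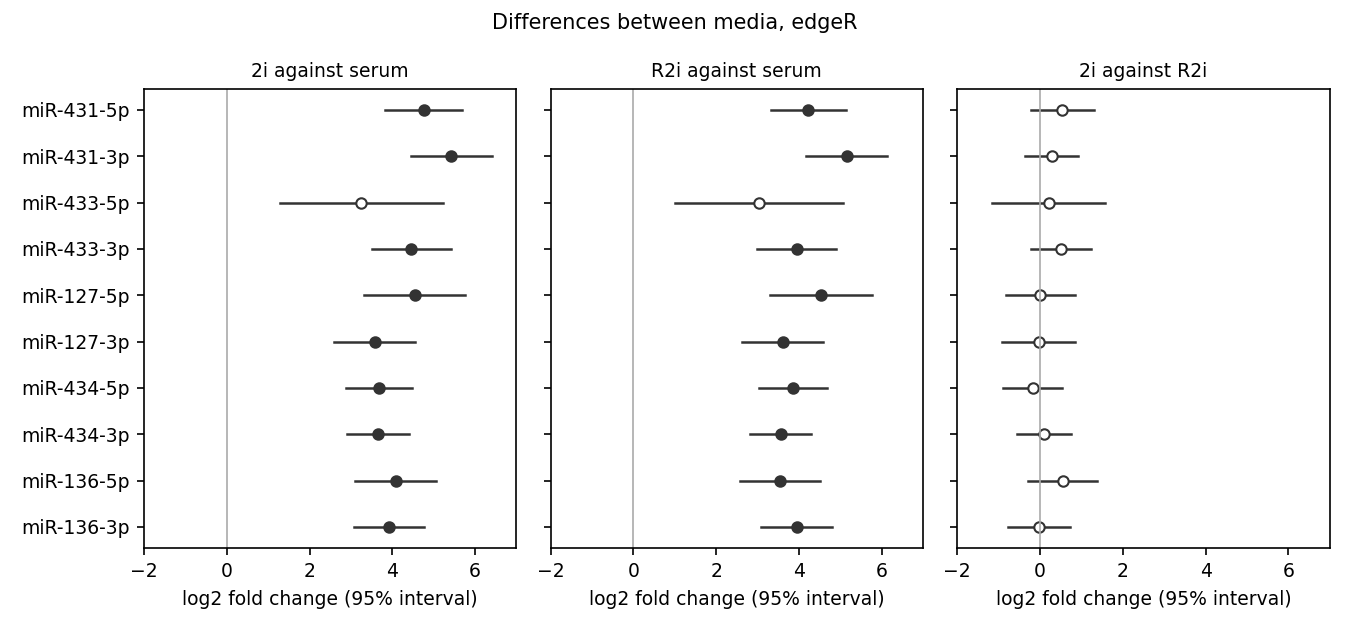
Log2 fold change with 95% interval (x axis) of each miRNA (y axis) in the 3 comparisons fitted with edgeR, filled where called and open where not. The intervals lie above 0 for all 10 in both comparisons with serum, with miR-433-5p the widest, and include 0 for all 10 in 2i against R2i.

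Set against each other, 2i and R2i differ in which inhibitor accompanies PD0325901. No member was called by edgeR in that comparison, where 0.35% of all tested miRNAs were, and 0 of the 10 had an unadjusted p under 0.05, beside 18.2% of all tested. DESeq2 and limma also gave 0 of the 10 by both measures. Of all 571 tested, DESeq2 called 7 higher and 5 lower in 2i, and limma 2 higher and 0 lower. With only these 2 media fitted, 1 of the 10 had an unadjusted p under 0.05, and without serum RB18 or without serum RB20 it was 2 of the 10, with 0 called in each case. The median log2 difference of the 10, 2i over R2i, was 0.16. For miR-127-3p it was -0.03 with a 95% interval of -0.92 to 0.86, and for miR-136-3p -0.02 with an interval of -0.77 to 0.72. The largest differences were 0.54 for miR-136-5p (-0.30 to 1.38, adjusted p 0.464) and for miR-431-5p (-0.23 to 1.3, adjusted p 0.435), and 0.51 for miR-433-3p (-0.22 to 1.23, adjusted p 0.435). On the other side, miR-434-5p was at -0.18 (-0.90 to 0.54). The widest interval was that of miR-433-5p, from -1.15 to 1.58. A 2-fold difference thus remained within the intervals of miR-136-5p, miR-431-5p, miR-433-3p and miR-433-5p.

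By single libraries, miR-431-5p, miR-433-3p, miR-434-3p and miR-136-5p were higher in both 2i libraries than in both R2i libraries. These are 4 of the 10, beside 29.9% of all tested miRNAs. In miR-434-5p both R2i libraries were the higher ones, and the other 5 members overlapped.

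RB18 and RB20 differed most in serum. There 9 of the 10 were higher in RB20, the exception being miR-431-3p with its 4 and 3 counts, and the median log2 difference, RB20 over RB18, was 1.12 with a range of -0.38 to 1.44. In 5 of the 10 the difference was over 2-fold, compared with 12.8% of all tested miRNAs, whose median was 0.13. These were miR-433-3p, miR-433-5p, both arms of miR-127 and miR-136-5p. Few counts stand behind 3 of them. In serum RB18 and RB20, miR-433-5p had 0 and 3 counts, miR-127-5p 1 and 6, and miR-433-3p 4 and 13. The top of the range, 1.44, was reached by miR-127-5p and miR-433-5p and so depends on the prior count. The other miRNAs of the region leaned the same way in serum, with 29 of 68 tested ones over 2-fold higher in RB20 and a median of 0.76. In 2i the median of the 10 was -0.05 and in R2i -0.19, and no member differed by more than 2-fold in either. A line had 1 library per medium and RB18 always the smaller one, so line, library size and single-library error cannot be told apart and no test was made. For miR-127-3p, the log2 ratio of 2i to serum was 4.45 within RB18 and 2.96 within RB20, and that of R2i to serum 4.42 and 3.06. The direction was thus the same in both lines, and the smaller ratio belonged to the line with more miR-127-3p in serum.

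The hairpins differed in which arm dominated. The 3p arm made up 99.7 to 99.9% of miR-127 counts. For miR-136 the 3p share was 82.6 and 77.5% in serum RB18 and RB20, 77.1 and 77.3% under 2i, and 86.2 and 79.9% under R2i, with 95% Wilson intervals from 74.7 to 88.5% for the smallest library count and from 76.1 to 78.4% for the largest. miR-434 was nearly balanced, its 3p share being 44.5 and 42.6% in serum, 42.2 and 43.5% under 2i, and 37.5 and 39.2% under R2i. In miR-431 the 5p arm led, with 11.4 to 16.4% from the 3p arm in the ground-state libraries and 14.8% (5.92 to 32.5%) and 5.45% (1.87 to 14.9%) in serum. miR-433 came mostly from the 3p arm, 90.7 to 94.1% in the ground-state libraries and 13 of 16 counts in serum RB20. By counts, the leading arm of each hairpin was the same in all 6 libraries. For miR-434 in serum RB18 this rests on 77 counts of the 3p arm and 96 of the 5p arm. The 95% Wilson interval of that 3p share, 37.3 to 52.0%, includes equal shares, so the leading arm was not resolved there.

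The ratio of the arms within a library does not depend on scaling between libraries. The log2 ratio of 3p to 5p was compared between the 4 ground-state and the 2 serum libraries where both arms had at least 10 counts in each library. For miR-434 the difference was -0.18 (exact two-sided permutation test, p = 0.267, adjusted p = 0.533 over 2 hairpins). For miR-136 it was 0.02 (exact permutation p = 0.933, adjusted p = 0.933). With 2i alone the miR-136 difference was -0.26 and with R2i alone 0.30, so the means of these media lay on opposite sides of the serum mean. By library (RB18 first), the log2 ratio was 2.25 and 1.79 in serum, 1.76 and 1.76 under 2i, and 2.64 and 1.99 under R2i. R2i RB20 thus lay between the serum libraries, and both 2i libraries were close to serum RB20. With 4 libraries against 2 the test cannot give a p below 0.133. It pooled 2i with R2i and did not use the pairing of libraries by line. Serum counts were too low to test miR-431, miR-433 and miR-127. Between 2i and R2i, the 3p share of miR-434 was higher in both 2i libraries and that of miR-136 in both R2i libraries, but 2 libraries against 2 cannot go below 0.333 and no test was made.

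**Figure D4:**
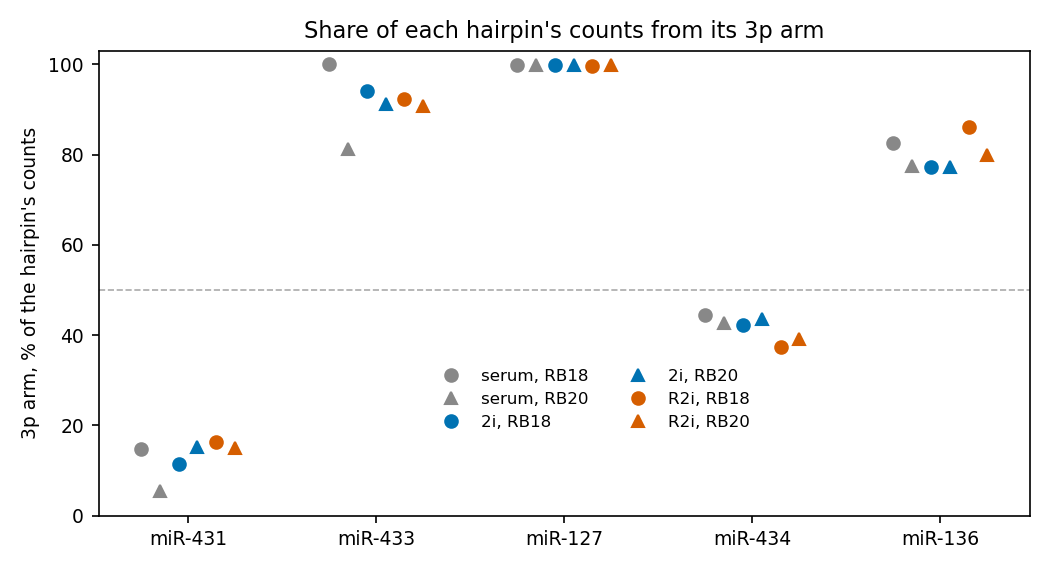
Share of each hairpin's counts that came from the 3p arm (y axis, percent; dashed line at 50) for the 5 hairpins (x axis) in each library, coloured by medium, with circles for RB18 and triangles for RB20. miR-127, miR-433 and miR-136 lie above the line and miR-431 and miR-434 below it in all 6 libraries; the miR-433 point at 100 in serum RB18 rests on 4 counts.

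The other miRNAs of the Dlk1-Dio3 region were set beside the 10. Of the 106, 68 were tested, and in 2i against serum 57 were called higher, 0 lower and 11 neither, with a median log2 fold change of 3.97. R2i against serum also gave 57 higher, 0 lower and 11 neither, with a median of 3.89. The medians of the 10 Rtl1-antisense miRNAs, 4.0 and 3.90, lay close to these, and their range of 3.25 to 5.43 in 2i was inside that of the 68, from -0.31 to 7.36. Among tested miRNAs outside the region, 30 were called higher and 99 lower in 2i, and 20 higher and 89 lower in R2i. In 2i against R2i, 0 of the 68 were called. By counts, the 10 made up 53.2 to 57.8% of all counts from the region in every library, so that their weight within it was similar in serum, where the region was low, and in the ground state. Most of this weight was that of miR-127-3p, which gave 81.0 to 86.5% of the counts of the 10.

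**Figure D5:**
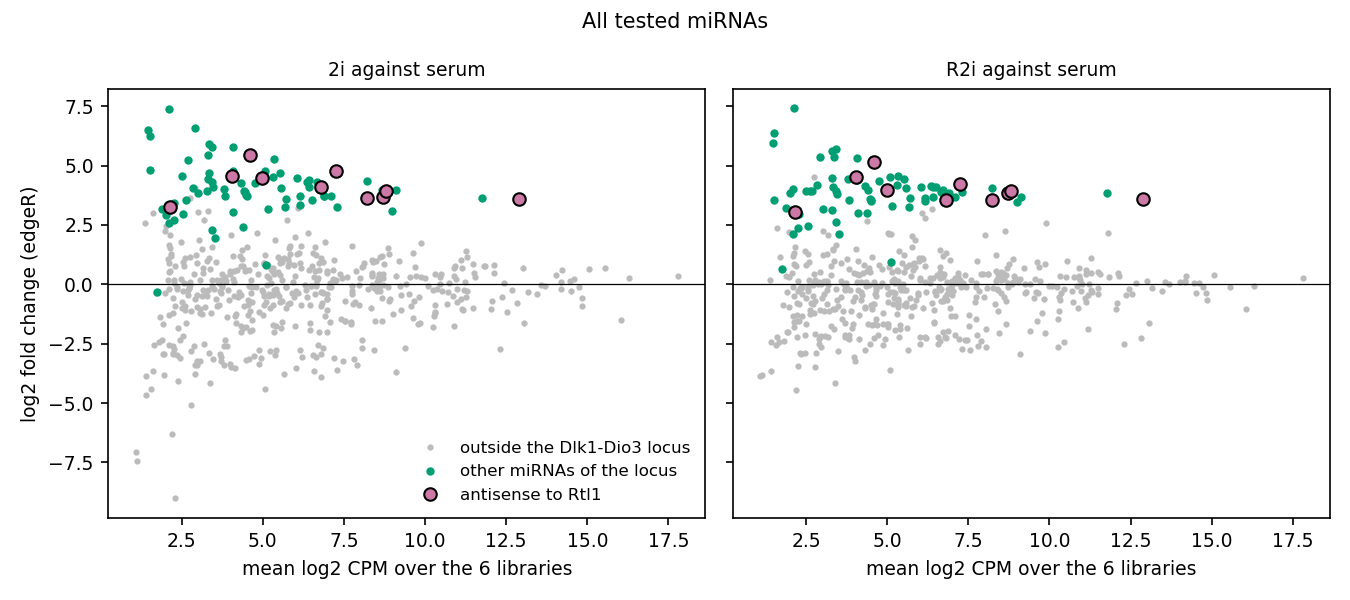
Log2 fold change (y axis) against mean log2 CPM over the 6 libraries (x axis) of the 571 tested miRNAs, in 2i (left) and R2i (right) against serum. The 10 Rtl1-antisense miRNAs lie at log2 fold changes of 3.04 or more, among the other miRNAs of the region, and miR-127-3p is the most abundant of them.

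Across the 6 libraries, the log2 CPM of each member followed the mean of the others, with Pearson r from 0.960 to 0.999. The 5 other miRNAs most like the group were miR-496a-3p, miR-487b-3p, miR-300-3p, miR-369-3p and miR-323-3p, each with r of 0.999 with its mean profile, and all belong to the same region. Of the 50 highest r, 45 were from the region. Outside it the closest were miR-218-5p, miR-301a-3p and miR-98-5p (r = 0.979, 0.979 and 0.978), then miR-16-1-3p (0.973) and let-7d-3p (0.971). Their differences were smaller, with log2 ratios of 2i to serum between 0.85 (let-7d-3p) and 1.40 (miR-301a-3p). These r rest on 6 libraries in which serum differs from the rest, so a miRNA with a difference of this direction reaches a high value, and they are given as a description.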

How the data were processed

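Small RNA was sequenced from 6 libraries, 2 ESC lines (RB18 and RB20) in each of 3 media. Per the submitters' processing notes, reads were handled with FastQC 0.11.5, cutadapt 1.3, Bowtie 1.1.2 and featureCounts 1.5 on mm10 (GRCm38), and the authors deposited whole-number counts per mature miRNA. Whether strand was used in counting is not given in the sources used here. The authors also deposited a table of log2 values, which equal log2 of count over a median-of-ratios size factor plus 1. All columns were used.

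From the counts, edgeR 4.0.16 (quasi-likelihood test, TMM, filterByExpr with a minimum count of 10, Benjamini-Hochberg adjustment, 1 coefficient per medium, all 6 libraries) tested 571 miRNAs. The study's test is not given in the sources used here, and its lines were merged. The biological coefficient of variation was 24.6%. Log2 CPM used a prior count of 2. The code was tested on simulated data. Alternatives included DESeq2 1.42.0, limma 3.58.1 on the deposited log2 values, scaling, filters, a block for line and leaving out each library. The lines are the same in every medium, which pairs the libraries; line differences correlated at 0.211 (serum and 2i), 0.243 (2i and R2i) and -0.128 (serum and R2i).

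Positions and sequences came from RefSeq for GRCm38 and GENCODE M21; 1877 of 1907 names were placed. Of the miRNAs outside the group, the 5 most like it and the 5 most like it outside the region were named. The members, lists and rules were chosen with earlier results of these data known.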

Additional observations from a re-analysis of the deposited data

How the results depend on the processing

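Across 17 alternatives, the members called numbered 9 or 10 in 2i and in R2i against serum where all 10 were tested, 6 of 6 with 10 counts required in every library, and 5 of 5 hairpins with both arms summed; 2i against R2i gave 0 in all 17. With the replicate block for line, the calls were 9, 9 and 0 in the 3 comparisons and changed for no member. miR-433-5p was called in 2i under 5 alternatives, DESeq2 among them, and in R2i under 3; its adjusted p ranged from 9.85e-05 to 0.0831 and from 0.000693 to 0.174. Over all tested miRNAs, the calls in 2i, 96 higher and 99 lower, became 132 and 89 with TMM taken outside the region, which raised the median log2 fold change from -0.03 to 0.29. In R2i that scaling raised it from -0.07 to 0.16, while the members' log2 fold changes were 3.27 or more. With 10 counts in every library, 402 miRNAs were tested. Of these, 59 were called higher in 2i and 51 in R2i, against 96 and 86 of the 571 in the main fit. Between 2i and R2i the main 2 calls of 571 became 0 with the block, and 7 higher and 5 lower with DESeq2. With no filter on low counts they became 25 (14 higher, 11 lower) of 1233 tested. Values near 0 changed sign. In 2i against R2i, miR-127-3p was at 0.051 with TMM outside the region, 0.0011 without a filter, and -0.137 to 0.0844 with a library left out. miR-136-3p was at 0.0588 and 0.0135 under the first 2 of these and at -0.21 to 0.24 with a library left out. miR-127-5p was at -0.0028 with only 2 media fitted, -0.063 in DESeq2, -0.085 with library totals, -0.04 in limma, and -0.28 to 0.35 with a library left out, and miR-433-5p at -0.079 to 0.62. The arm ratio difference of miR-136 was -0.26 with 2i alone and 0.30 with R2i alone. It was -0.049 within the RB18 libraries and -0.21 to 0.25 with a library left out. That of miR-431, 0.75, was -0.13 within the RB18 libraries and -0.048 to 1.54 with a library left out. The cause of these changes was not tested. The serum values of the 4 members with fewer than 10 counts in a serum library are known with less precision.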
